A study of Homo sapiens with 12 samples.

Results

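The genes described here are 26 genes of cholesterol synthesis and of its control by the sterol regulatory element binding proteins (SREBPs), taken by name from 60483 genes counted in total RNA. All 26 were found and all passed the filter on low counts, which left 14409 genes for testing. Coordinates are those of RefSeq on GRCh38.p14, and the deposited counts use hg38. The genes were compared between HEK293 cells, a human embryonic kidney line, that produced a catalytic mutant of the RNA-degrading enzyme DIS3L2 (mut) and HEK293 cells that produced the wild-type enzyme (WT). The enzyme degrades cytoplasmic RNA from its 3′ end. Both groups carried a Flp-In T-REx cassette that made recoded, C-terminally FLAG-tagged DIS3L2 together with sh-miRNAs against the endogenous DIS3L2 mRNA, and both received doxycycline at 100 ng/ml for 3 days. By design, the mut and WT groups therefore differ in the enzyme variant and share the knockdown, the tag and the drug. The labels do not say whether each variant is 1 cell line or several. There were 3 total RNA libraries per group, and 3 small RNA libraries per group selected for 20 to 200 nt. The labels do not give the replicates as independent cultures, and the p-values below therefore reflect library-to-library spread that may be technical in part.

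Cells build cholesterol from acetyl-CoA through the mevalonate arm, which ends in farnesyl diphosphate, and through a sterol arm that runs from squalene over lanosterol to cholesterol. When membrane sterol is low, SCAP carries the SREBPs from the endoplasmic reticulum to the Golgi, where proteases release the active transcription factors. When sterol is high, the INSIG proteins hold SCAP back. INSIG1 is itself an SREBP target, as are most genes of both arms, the sterol carrier gene STARD4 and the fatty acid genes FASN and SCD. The genes of this pathway therefore usually rise and fall together when cellular sterol changes.

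SREBPs bind the sterol regulatory element, usually beside sites for NF-Y (CCAAT) and Sp1 (GGGCGG), and RefSeq promoters (GRCh38.p14, 250 bases before to 50 after the start) were matched for 22 of the 26 genes, which have 28 promoters. Letters were searched on both strands. The strict element TCACNCCAC was in 1 of the 28 promoters (3.57%), that of SREBF2, against 1.13% of all 35116 promoters. The looser TCANNCCAC, which includes every match of the strict form and was added after the strict search, was in the promoters of SREBF2 and INSIG1 (7.14%, against 3.82%). CCAAT was in 19 of the 28 promoters (67.9%), against 34.6% of all promoters and 34.7% of 22199 promoters of protein-coding genes. GGGCGG was in 26 of the 28 (92.9%), against 44.95% of all promoters and 56.3% of those of protein-coding genes. ACAT2, SQLE, FDFT1 and FASN were not matched. These are matches of letters and say nothing of binding in these cells. The promoters shown are those of INSIG1, the gene with the smallest adjusted p, of SREBF2, which holds the strict element, of SCD, which fell, and of EBP, which rose. Capitals mark TCANNCCAC, CCAAT and GGGCGG or their reverse complements. Overlapping GGGCGG matches run together. The INSIG1 promoter lies at chr7:155297628-155297927, that of SREBF2 at chr22:41832855-41833154, that of SCD at chr10:100346983-100347282 and that of EBP at chrX:48521558-48521857, all on the plus strand.
INSIG1: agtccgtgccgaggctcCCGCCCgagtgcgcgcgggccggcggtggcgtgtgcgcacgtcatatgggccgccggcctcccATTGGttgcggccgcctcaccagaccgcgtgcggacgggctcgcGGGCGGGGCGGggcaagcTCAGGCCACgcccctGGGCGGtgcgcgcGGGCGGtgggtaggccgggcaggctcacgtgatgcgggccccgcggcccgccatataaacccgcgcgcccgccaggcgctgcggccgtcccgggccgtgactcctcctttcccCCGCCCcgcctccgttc
SREBF2: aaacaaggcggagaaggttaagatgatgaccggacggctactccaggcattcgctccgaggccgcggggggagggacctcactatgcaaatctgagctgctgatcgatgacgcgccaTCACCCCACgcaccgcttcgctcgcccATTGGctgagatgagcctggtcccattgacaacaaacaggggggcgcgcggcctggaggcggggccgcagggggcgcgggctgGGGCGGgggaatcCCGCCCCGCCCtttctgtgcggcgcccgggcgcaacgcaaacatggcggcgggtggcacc
SCD: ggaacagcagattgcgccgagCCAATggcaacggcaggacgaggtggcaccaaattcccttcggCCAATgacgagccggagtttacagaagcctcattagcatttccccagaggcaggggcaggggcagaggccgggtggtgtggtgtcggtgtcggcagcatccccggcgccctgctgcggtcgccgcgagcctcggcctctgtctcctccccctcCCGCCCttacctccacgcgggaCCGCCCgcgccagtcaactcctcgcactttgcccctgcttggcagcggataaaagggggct
EBP: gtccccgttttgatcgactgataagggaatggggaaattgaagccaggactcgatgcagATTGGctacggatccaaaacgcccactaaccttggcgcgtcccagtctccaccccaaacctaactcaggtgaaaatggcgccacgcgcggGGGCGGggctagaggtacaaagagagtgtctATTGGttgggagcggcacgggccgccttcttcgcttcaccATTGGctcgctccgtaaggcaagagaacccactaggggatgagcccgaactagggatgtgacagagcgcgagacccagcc
The element of SREBF2 starts at position -133 from the transcription start and the looser match of INSIG1 at position -108. The INSIG1 promoter holds 6 GGGCGG matches, and EBP, which has no sterol element by either search, holds 3 CCAAT matches and 1 GGGCGG match.

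Of the 26 genes, 5 were higher and 3 lower in mut cells than in WT cells at an adjusted p under 0.05 (edgeR's quasi-likelihood test, Benjamini-Hochberg over all tested genes). TM7SF2, FASN, EBP, LSS and SCAP rose, and INSIG1, STARD4 and SCD fell. The 8 called genes are 30.8% of the members, against 27.2% of all tested genes, and the 5 higher and 3 lower genes are 19.2% and 11.5%, against 13.0% and 14.2% of all tested genes. The count of higher genes was 3 without mut library 1 or mut library 3, and 2 without WT library 1 or WT library 3. In 10 of the 26 genes (38.5%) the mut libraries lay wholly on one side of the WT libraries, against 40.5% of all tested genes. The median log2 fold change (mut over WT) was 0.08 for the members and -0.01 for all tested genes, the median size regardless of sign was 0.18 in both, and no member differed by more than 1.5-fold. Without mut library 1 the median of the members was 0.04. The share of changed members was thus near that of the whole transcriptome, and 15 members had a positive and 11 a negative fold change. Summed over the 26 genes, the mut libraries held 2827, 2675 and 2763 CPM (read counts scaled to library size with TMM factors) and the WT libraries 2730, 2781 and 2671, with overlap. CPM values are not divided by transcript length, so they compare libraries for 1 gene and not genes with each other. In bulk RNA, fewer cells of a type and less RNA per cell cannot be told apart.

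**Figure D1:**
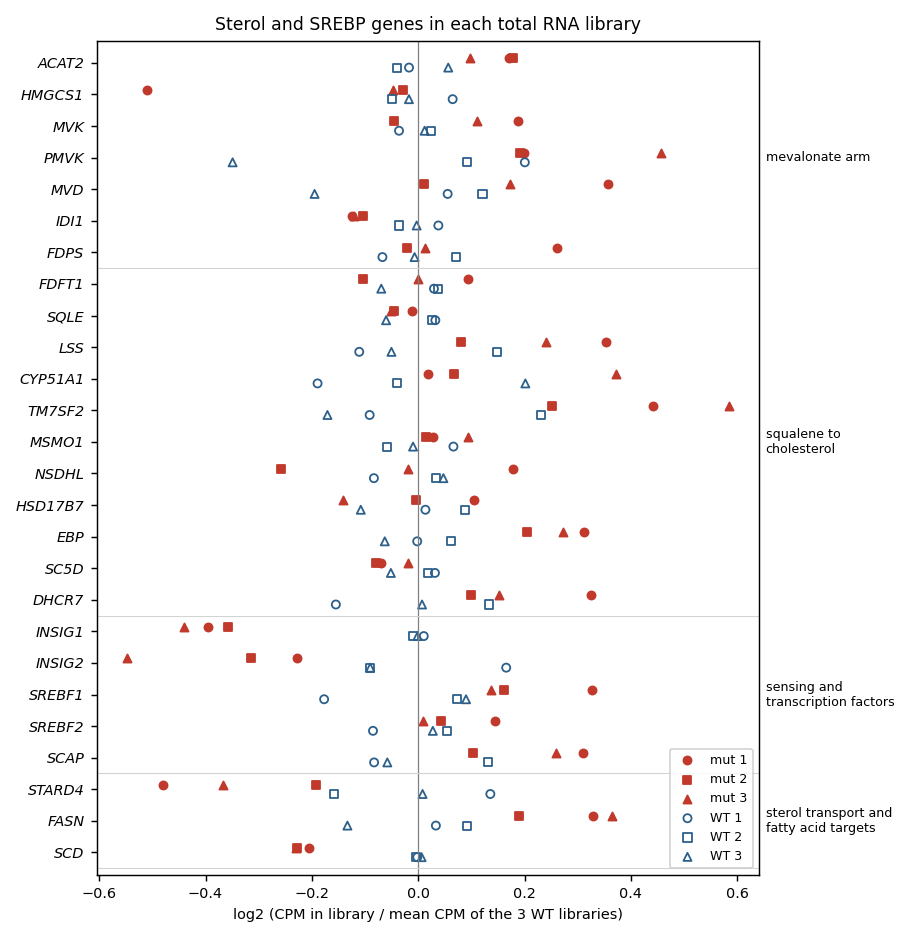
Level of each of the 26 genes in each total RNA library, as log2 of its CPM over the mean of the 3 WT libraries, with mut libraries as filled red symbols and WT libraries as open blue symbols. INSIG1 and SCD show WT libraries in a tight cluster with the 3 mut libraries to the left of it, while in most mevalonate and sterol arm genes the libraries of both groups mix.

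Counts in genes overlapped between the groups, from 8467957 to 9009114 in mut libraries and from 8315986 to 12675042 in WT libraries. Some other properties of the whole libraries moved with the groups. Reads outside genes were 12.3% to 13.7% of all deposited reads in mut and 16.6% to 19.4% in WT, and reads that overlapped several genes 8.60% to 9.86% in mut and 6.90% to 8.28% in WT. DIS3L2 itself stood at 1144, 1040.0 and 1091 CPM in mut and 763, 813 and 777 CPM in WT, a count that may hold both transgene and endogenous reads. This count was higher in mut by 0.48 on the log2 scale (edgeR adjusted p = 1.9e-07). The groups thus differed in it as well as in the variant. Of 6 genes used to check the HEK293 label, VIM, CDH2, NEFL and ENO2 passed the filter and PAX2 and NEFM did not. The sum of the 6 was 1620 to 1715 CPM in mut and 1354 to 1477 CPM in WT (not TMM-scaled). VIM made up most of it, at 1372 to 1481 CPM in mut and 1169 to 1282 CPM in WT. Fibroblast genes (COL1A1, COL3A1 and PDGFRA, all 3 tested) summed to 4.43 to 6.66 CPM in mut and 2.60 to 3.55 CPM in WT. Lists for hepatocytes, steroid-producing cells, leukocytes and adipocytes (14 genes) had 0 tested genes and summed to values at or below 0.624 CPM in every library, and TTR, CYP7A1, SERPINA1 and CD3E were at 0 throughout. The part of these shifts in the results on sterol genes was not tested. Counting also sets limits, since 14 of the 26 genes overlap another RefSeq gene and the strand setting is not given in the sources used here. ACAT2, MVK, IDI1 and SREBF1 overlap a protein-coding gene, and STARD4 and INSIG1 overlap a non-coding one. FDPS, IDI1, CYP51A1, HSD17B7 and SCD have pseudogenes named after them, with which they may share reads, so their values are uncertain.

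Of the 5 genes that sense sterol and switch the pathway on and off, 2 passed the test, against 27.2% of all tested genes. INSIG1 was lower in mut and SCAP higher, and 3 did not pass. The groups overlapped for SCAP and its call did not hold in every setting, so a direction of the set does not follow from these 2 genes. INSIG1 (ENSG00000186480, chromosome 7, 155297878 to 155310235), which retains SCAP in the endoplasmic reticulum, stood at 176, 181 and 171 CPM in the mut libraries, against 234, 230.5 and 232 CPM in the WT libraries. Every mut library was below every WT library, and the gap was several times the spread within either group. Its log2 fold change was -0.40 (SE 0.06, 95% interval -0.51 to -0.28, edgeR adjusted p = 1.01e-05), a level 24.1% lower in mut. INSIG2 (chromosome 2), the paralog that is less subject to SREBP control, had 9.60, 9.04 and 7.70 CPM in mut, against 12.6, 10.6 and 10.6 CPM in WT. Its libraries were also apart, but it stayed just outside the threshold at -0.35 (SE 0.13, interval -0.63 to -0.08, edgeR adjusted p = 0.051). It rests on far fewer reads than INSIG1, with 67 to 86 counts per mut library and 86 to 135 per WT library.

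SCAP (ENSG00000114650, chromosome 3, 47413681 to 47477127), the escort that carries SREBPs to the Golgi, had 109, 94.1 and 105 CPM in mut libraries and 82.7, 96.0 and 84.2 CPM in WT libraries. The groups overlapped, since WT library 2 exceeded mut library 2. The fitted log2 fold change was 0.22 (SE 0.07, edgeR adjusted p = 0.023), and the call was lost without mut library 1 or 3 or without WT library 1 or 3 (edgeR adjusted p of 0.0645, 0.0609, 0.131 and 0.0811 in that order). SREBF1 (chromosome 17), which encodes the SREBP with the closest link to fatty acid synthesis, had 34.7, 31.0 and 30.5 CPM in mut and 24.5, 29.1 and 29.5 CPM in WT. Its libraries did not overlap, yet the difference of 0.21 (interval 0.02 to 0.40) did not pass (edgeR adjusted p = 0.090). SREBF2 (chromosome 22), the main activator of sterol genes and the holder of the strict element shown above, had 95.6, 89.0 and 87.0 CPM in mut and 81.5, 89.7 and 88.1 CPM in WT, with overlap (0.07, interval -0.07 to 0.20, edgeR adjusted p = 0.50). The intervals of both transcription factor mRNAs stayed under 1.5-fold, and SREBP activity, which depends on cleavage, was not measured.

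**Figure D2:**
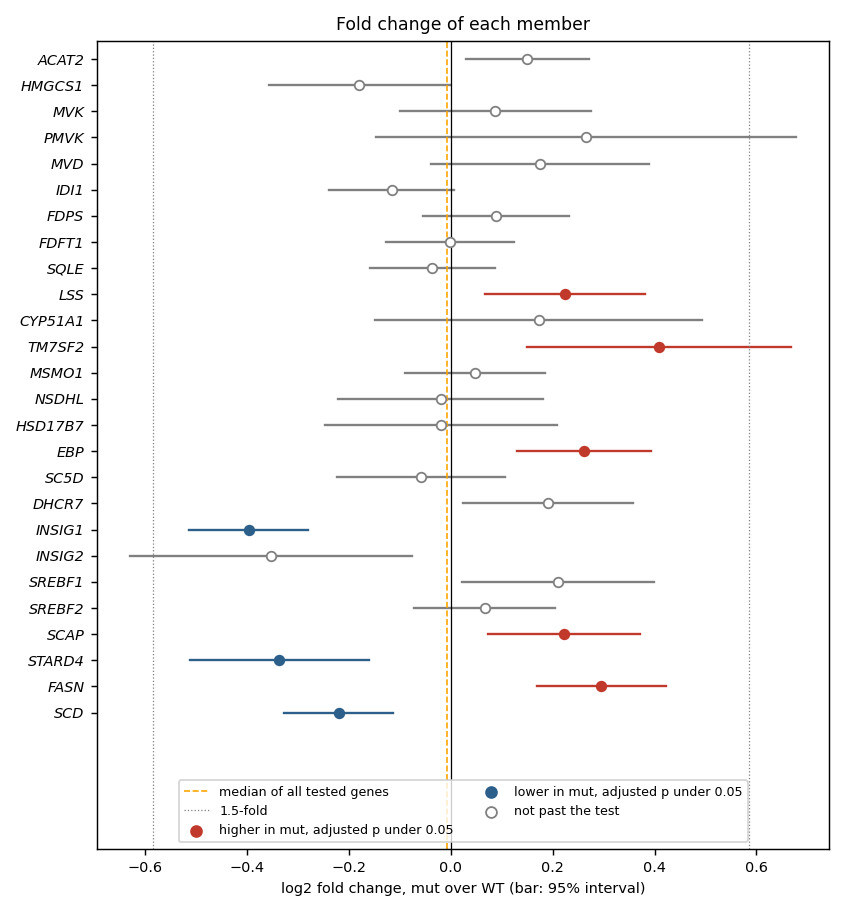
Log2 fold change of each gene, mut over WT, with its 95% interval, in pathway order from the mevalonate arm at the top to transport and fatty acid genes at the bottom. Filled red points (5 genes) passed the test as higher and filled blue points (3 genes) as lower. Open points did not pass, dotted lines mark 1.5-fold and the dashed line marks the median of all tested genes.

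Introns of both SREBP genes hold a microRNA of the miR-33 family, which is known to restrain cholesterol export. MIR33A lies in SREBF2 (chr22:41900944-41901012) on the plus strand and MIR33B in SREBF1 (chr17:17813836-17813931) on the minus strand, and their 5p arms, shown with bases 2 to 8 in capitals, share 1 seed in their RefSeq sequences.
hsa-miR-33a-5p: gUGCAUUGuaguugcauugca
hsa-miR-33b-5p: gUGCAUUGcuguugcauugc
In the small RNA libraries the MIR33A precursor had 1 fragment in mut library 3 and 0 in the other 5 libraries, and the MIR33B precursor 0 in all 6. A count of 0 allows up to 2.46 to 6.08 FPM (fragments scaled to library depth), depending on the library, for counting error only. In total RNA, MIR33A was at 0 throughout, which allows up to 0.361 CPM. MIR33B had 2 counts in mut library 3, 2 in WT library 2, 1 in WT library 3 and 0 elsewhere. No difference in miR-33 was detectable at this depth.

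In the mevalonate arm 0 of 7 genes passed the test by edgeR or DESeq2, against 27.2% of all tested genes by edgeR, with log2 fold changes between -0.18 and 0.27. At an unadjusted p under 0.05 there were 2 (ACAT2 and HMGCS1), against 5523 of all 14409 tested genes. ACAT2, the cytosolic thiolase that joins acetyl-CoA units, was nearest, at 191, 192 and 182 CPM in mut and 168, 165 and 177 CPM in WT. All mut libraries were above all WT libraries (0.15, interval 0.03 to 0.27, edgeR adjusted p = 0.060). ACAT2 passed without mut library 3 (edgeR adjusted p = 0.0485) and with a filter of at least 1 CPM in 3 libraries. HMGCS1, which makes HMG-CoA, had 77.6, 108 and 107 CPM in mut, against 116, 107 and 109 CPM in WT. Mut library 1 stood apart from the other 5 libraries, and without it the log2 fold change was -0.03 (edgeR adjusted p = 0.80), against -0.18 with all libraries (0.126). It passed without mut library 2 (-0.26, edgeR adjusted p = 0.0299) and without the filter on low counts. The kinases MVK and PMVK (0.09 and 0.27), the decarboxylase MVD (0.18) and FDPS, which makes farnesyl diphosphate (0.09), overlapped between the groups, with edgeR adjusted p of 0.22 to 0.51. PMVK was thinly covered, with 23 to 49 counts per library and an interval of -0.15 to 0.68, so a change of over 1.5-fold remains within its error. IDI1, the isomerase before FDPS, had 131, 133 and 132 CPM in mut and 147, 140 and 143 CPM in WT. Its mut libraries all lay below WT (-0.12, interval -0.24 to 0.01, edgeR adjusted p = 0.15), and it passed after correction for a dependence of fold change on the length of the gene in the genome. Summed over the arm, the libraries stood at 626.3, 620.1 and 616.0 CPM in mut and 613.5, 609.8 and 613.5 CPM in WT.

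In the sterol arm 3 of 11 genes rose and 0 fell (27.3% called, at the background of 27.2% of all tested genes), with fold changes on the log2 scale from -0.06 to 0.41. EBP (ENSG00000147155, chromosome X, 48521808 to 48528716), the sterol isomerase that moves the ring double bond, had 126, 117 and 122 CPM in mut, against 101, 106 and 96.8 CPM in WT. The groups were well apart (0.26, SE 0.06, interval 0.13 to 0.39, edgeR adjusted p = 0.0031), a level 19.9% higher in mut. TM7SF2 (ENSG00000149809, chromosome 11, 65111872 to 65116230), a sterol C14 reductase, had 15.4, 13.5 and 17.0 CPM in mut and 10.7, 13.3 and 10.1 CPM in WT. Mut library 2 exceeded WT library 2 only narrowly, and the fold change of 0.41 (SE 0.13, interval 0.15 to 0.67, edgeR adjusted p = 0.017) was the largest rise among the 26 genes. LSS (ENSG00000160285, chromosome 21, 46188446 to 46228774), which closes squalene epoxide into lanosterol, had 112, 92.7 and 104 CPM in mut, against 81.2, 97.2 and 84.7 CPM in WT. The groups overlapped, since WT library 2 was above mut library 2 (0.22, SE 0.08, edgeR adjusted p = 0.030). Leaving out mut library 3 took TM7SF2 out of the called genes (edgeR adjusted p = 0.0856), as did leaving out WT library 1 (0.0738) or WT library 3 (0.0675). LSS dropped out without mut library 1 (edgeR adjusted p = 0.113), mut library 3 (0.0611), WT library 1 (0.171) or WT library 3 (0.0906).

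The other 8 genes of the arm did not pass, with edgeR adjusted p of 0.081 to 0.98. DHCR7, which reduces 7-dehydrocholesterol to cholesterol, had 66.7, 57.0 and 59.1 CPM in mut and 47.8, 58.3 and 53.4 CPM in WT, again with WT library 2 above mut library 2 (0.19, interval 0.02 to 0.36, edgeR adjusted p = 0.0813), and it passed when either of these libraries was left out. FDFT1, which makes squalene, and SQLE, which oxidises it, had narrow intervals, -0.13 to 0.12 and -0.16 to 0.09. FDFT1 stood at 243, 212 and 227 CPM in mut and 232, 233 and 217 CPM in WT. MSMO1, NSDHL and HSD17B7, which take part in removing methyl groups from the ring, lay at 0.05, -0.02 and -0.02, and the desaturase SC5D at -0.06. CYP51A1, the lanosterol demethylase, had only 58 to 85 counts per library and an interval of -0.15 to 0.49.

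**Figure D3:**
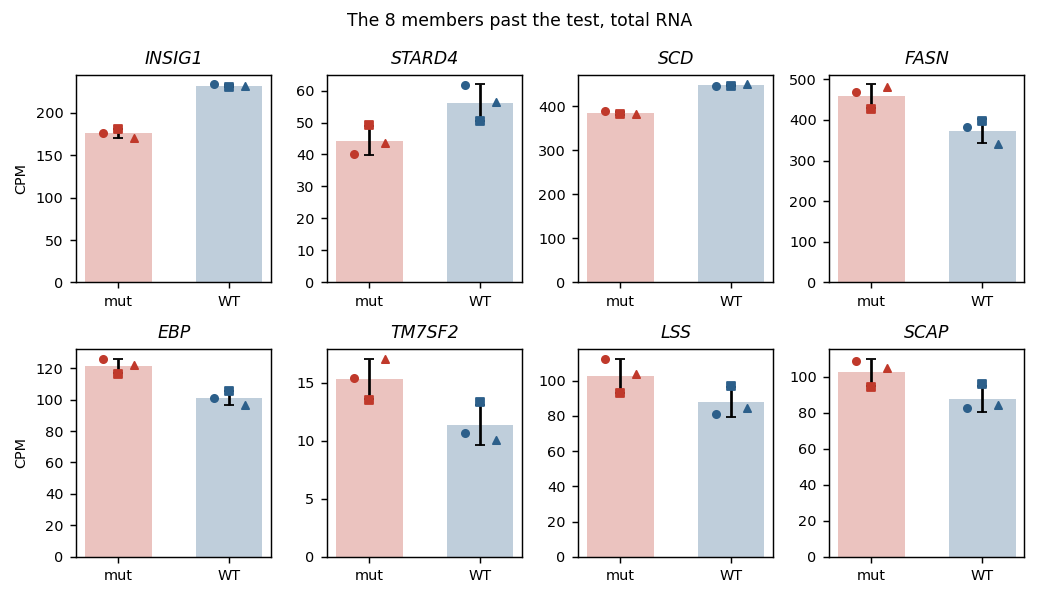
CPM of the 8 genes past the test in total RNA, mut left of WT, with bars for the mean, error bars for the SD of 3 libraries and points for the libraries. The groups are apart in INSIG1, STARD4, SCD, FASN, EBP and TM7SF2, while in LSS and SCAP the square of WT library 2 lies above the square of mut library 2.

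Sterol transport and the fatty acid genes split. STARD4 (ENSG00000164211, chromosome 5, 111496033 to 111512535), which encodes a soluble carrier that moves cholesterol between membranes, had 40.3, 49.2 and 43.6 CPM in mut, against 61.7, 50.4 and 56.5 CPM in WT. The highest mut library was just below the lowest WT library (-0.34, SE 0.09, interval -0.51 to -0.16, edgeR adjusted p = 0.0044), a level 20.8% lower in mut. Without WT library 1 its edgeR adjusted p was 0.0497, just inside the threshold. SCD (ENSG00000099194, chromosome 10, 100347233 to 100364826), the desaturase that makes oleate, had 389, 383 and 382 CPM in mut, against 447, 447 and 450.0 CPM in WT. Replicates differed by far less than the groups (-0.22, SE 0.05, interval -0.33 to -0.11, edgeR adjusted p = 0.0024). FASN (ENSG00000169710, chromosome 17, 82078338 to 82098236), the fatty acid synthase that makes palmitate, moved the other way, with 469, 426 and 480.4 CPM in mut and 382, 398 and 340.4 CPM in WT. Each mut library was above each WT library (0.30, SE 0.06, interval 0.17 to 0.42, edgeR adjusted p = 0.00079), a level 22.7% higher in mut.

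FASN hosts the box C/D snoRNA SNORD134, which was covered in the small RNA libraries. A link between the level of this snoRNA and that of FASN mRNA was not tested. A locus the authors reconstructed from the reads (chr17:82089960-82090177, minus strand) overlaps SNORD134 and had 31, 40 and 12 fragments in mut and 22, 13 and 18 in WT. Scaled to depth, these were 42.8, 32.8 and 23.8 FPM in mut, against 42.6, 26.4 and 30.7 FPM in WT. The groups overlapped, with means of 33.15 ± 9.50 FPM in mut and 33.24 ± 8.43 FPM in WT (SD, n = 3 each, exact permutation p = 1.0, two-sided, of 20 assignments). The smallest p this design allows is 0.1, so it could not pass a threshold of 0.05 whatever the values. Of 9 small RNA features inside the 26 genes, 3 had any fragment.

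The fold changes were also set against position in the genome, since earlier results of these data showed chromosome segments whose genes moved together. Each gene was set beside the 20 nearest tested protein-coding genes on its chromosome that are not members. LSS lay in the middle of its surroundings. Its 20 neighbours had a median log2 fold change of 0.26, 12 of them were called higher and 0 lower, and 12 had a fold change at or above that of LSS (0.22). For SCAP (0.22) the neighbours had a median of 0.16, and 6 of them were at or above SCAP. Of these 20 neighbours, 5 were called higher and 1 lower. STARD4 (-0.34) had neighbours with a median of -0.21, 7 of them called lower, and 2 of them fell at least as far. EBP (0.26) was above all 20 neighbours (median -0.02), on a chromosome where 30.6% of genes were called lower and 5.58% higher. INSIG1 (-0.40, neighbours -0.11) and SCD (-0.22, neighbours -0.02) each had 1 neighbour that fell at least as far. TM7SF2 (0.41, neighbours 0.09) had 2 neighbours at or above it and FASN (0.30, neighbours 0.11) had 5. Of the 20 neighbours of TM7SF2, 5 were called higher and 0 lower, and of those of FASN 6 and 0. Around INSIG1, 1 was called higher and 4 lower, and around SCD 0 and 3.

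Among the genes that did not pass, some stood against their surroundings. HMGCS1 lay at -0.18 among neighbours with a median of 0.23, 8 of them called higher. CYP51A1 lay at 0.17 among neighbours with a median of -0.26, 10 of them called lower. MSMO1 lay at 0.05 among neighbours with a median of -0.22, 8 of them called lower. In all, 7 of the 8 called genes had the sign of their neighbours' median, EBP being the exception. Most of the genes that did not pass also had the sign of their neighbours' median. The share over all tested genes was not computed. The part of the segments in these fold changes was not tested.

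**Figure D4:**
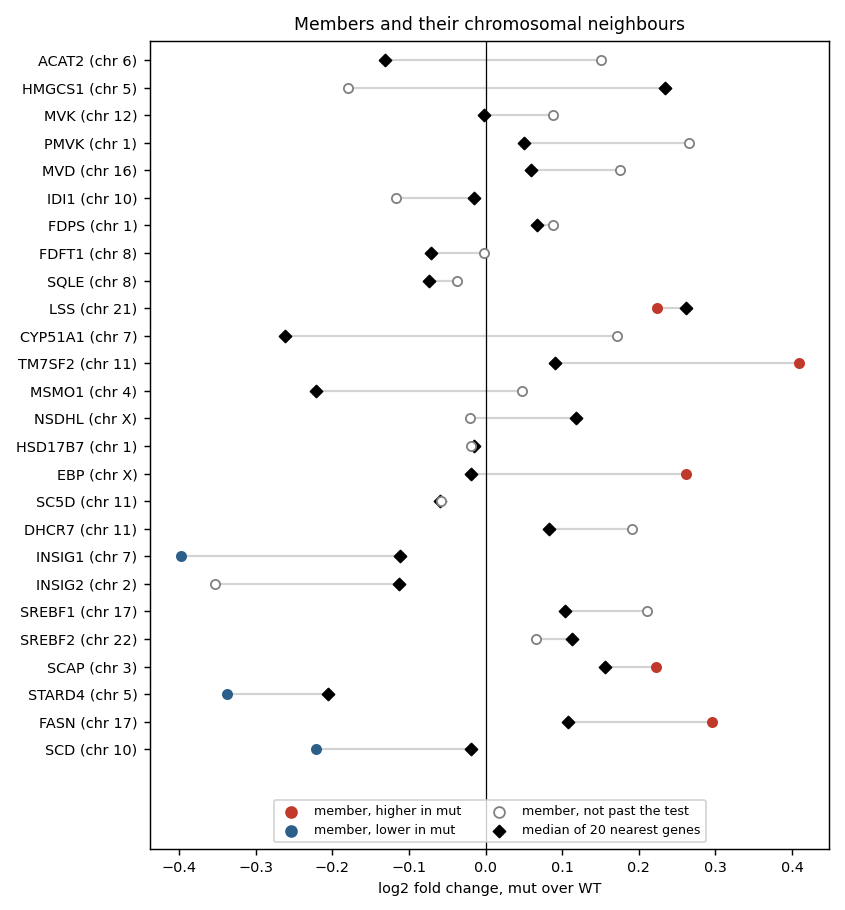
Log2 fold change (mut over WT) of each of the 26 genes as a circle and the median of its 20 nearest tested protein-coding genes as a black diamond. Circle and diamond lie close together for LSS, HSD17B7 and SC5D and are far apart for EBP, INSIG1, TM7SF2, HMGCS1 and CYP51A1.

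Around these 26 genes, the machinery that moves and degrades sterol sensors had 4 of 26 tested genes higher and 4 lower (30.8% called, against 27.2% of all tested genes, median log2 fold change -0.02). MARCHF6, the ligase that degrades squalene epoxidase, rose by 0.22 (edgeR adjusted p = 0.0097). The ATPase gene VCP and the conjugating enzyme gene UBE2G2, which act with such ligases, rose by 0.18 and 0.20. SEC24A and SEC24B, coat proteins of the vesicles that leave the endoplasmic reticulum, fell by 0.26 and 0.29, the ligase gene RNF145 by 0.25 and FBXW7, whose product marks active SREBPs for degradation, by 0.27. MARCHF6 and UBE2G2 lie among neighbours with medians of 0.28 and 0.21. Without WT library 3, 2 genes of this list were higher and 2 lower, and the lower count was also 2 without mut library 3 or WT library 1.

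Fatty acid genes beyond FASN and SCD also moved both ways, with 7 of 25 tested genes higher and 4 lower (44.0% called, against 27.2% of all tested genes, median 0.07). The desaturases FADS1 and SCD5 rose by 0.50 and 0.54, HACD3, a dehydratase of chain elongation, by 0.37 and ACLY, which supplies cytosolic acetyl-CoA, by 0.26 (edgeR adjusted p of 2.0e-06 to 0.00075). The elongase ELOVL6 fell by 0.43, the acyltransferase GPAM by 0.32, the lipin gene LPIN1 by 0.27 and the ligase gene ACSL4 by 0.20 (edgeR adjusted p of 0.0013 to 0.044). Thus SCD fell while its paralog SCD5 rose, and the difference between the paralogs was not tested. FADS2, ACSS2 and ELOVL7 also rose. FADS1, SCD5, HACD3 and ACLY lay among neighbours with medians of 0.08, -0.10, 0.12 and 0.09. For ELOVL6, GPAM, LPIN1 and ACSL4 the medians were -0.04, -0.11, -0.003 and -0.19, so ACSL4 lay near its neighbours. The count of lower genes was 2 without mut library 1 or WT library 3 and with DESeq2, and 1 without WT library 1.

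Of 32 tested genes of cholesterol uptake, transport, storage and efflux, 3 were higher and 2 lower (15.6% called, against 27.2% of all tested genes). NPC1, which releases cholesterol from lysosomes, rose by 0.47, the oxysterol-binding protein gene OSBPL1A by 0.28 and the sterol exporter gene ABCG1 by 0.72, the last at 5.47, 6.58 and 5.06 CPM in mut libraries and 4.24, 3.68 and 2.21 CPM in WT libraries. LRP8 and OSBPL8 fell by 0.29 and 0.27, among neighbours with medians of -0.09 and -0.18. NPC1 and OSBPL1A lie on chromosome 18, where their neighbours had medians of 0.29 and 0.31. ABCG1 lies on chromosome 21 among neighbours with a median of 0.17, 7 of them called higher and 0 lower. ABCG1 rests on few reads, with 44 to 56 counts per mut library and 18 to 47 per WT library. The lower count was 1 when mut library 1, WT library 1 or WT library 3 was left out. The higher count was 2 without WT library 1 or WT library 3 and with DESeq2. The higher count was 4 without mut library 1 or with the 1 CPM filter, and 5 after correction for gene length in the genome. The non-sterol isoprenoid branch had 2 of 18 genes higher (RCE1 by 0.42 and ICMT by 0.17, which finish prenylated proteins) and 1 lower (the prenyltransferase subunit gene PGGT1B, -0.27), 16.7% called against 27.2% of all tested genes, and leaving out mut library 1, WT library 1 or WT library 3 gave 1 higher and 0 lower. RCE1, ICMT and PGGT1B lay among neighbours with medians of 0.21, 0.05 and -0.15. Of 13 genes of other sterol synthesis steps, 3 rose. AACS, which feeds acetoacetate into sterols, rose by 0.41. LBR, which encodes another sterol C14 reductase beside TM7SF2, rose by 0.28 among neighbours with a median of 0.38, and CYB5A, an electron carrier gene on chromosome 18, rose by 0.35 among neighbours with a median of 0.25.

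Which calls held was uneven. INSIG1, STARD4, SCD, FASN and EBP were past the test with every one of 12 other settings, including each library left out in turn, with log2 fold changes of -0.44 to -0.36, -0.42 to -0.26, -0.25 to -0.20, 0.25 to 0.35 and 0.20 to 0.30. LSS was past it in 7 of 12, and TM7SF2 and SCAP in 8 of 12 each. The DESeq2 Wald test called FASN, EBP and SCAP higher and INSIG1, STARD4 and SCD lower, so its counts were 3 and 3. INSIG2 passed in 3 of the 12 settings.

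**Figure D5:**
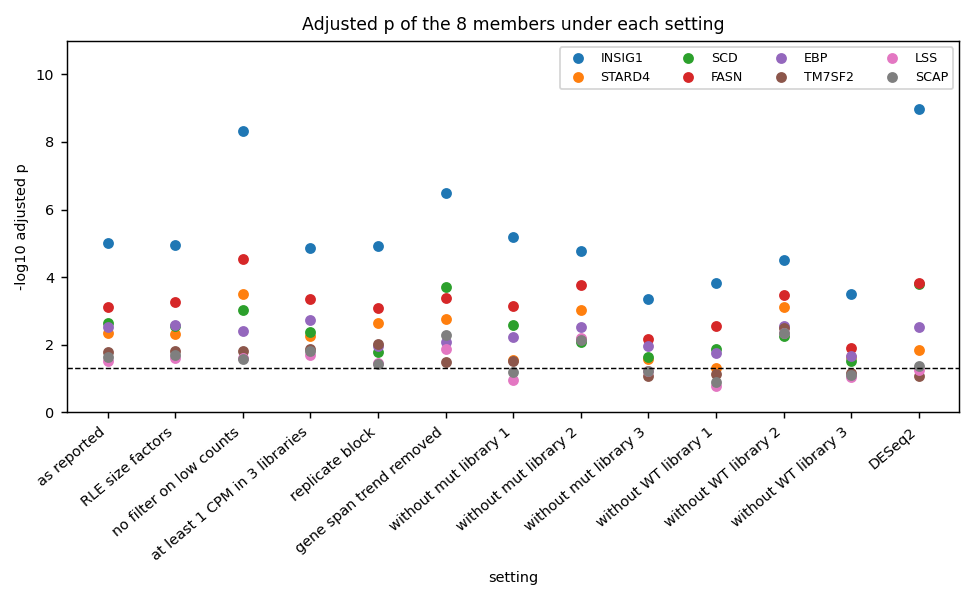
Adjusted p of the 8 called genes, as -log10, under the reported setting and 12 others, with the dashed line at 0.05. INSIG1 is the highest point under every setting, and the points of LSS, TM7SF2 and SCAP drop below the line when mut library 3, WT library 1 or WT library 3 is left out.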

How the data were processed

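Total RNA counts per gene were deposited by the authors as raw read counts, made with CASAVA 1.8.2, STAR 2.4.0, SAMtools 1.2-10 and HTSeq 0.6.1 on hg38, per the submitters' processing notes, which also name FastQC 0.11.3 and DESeq2 1.8.2 without saying for which files. Neither annotation version nor strand setting is given in the sources used here. The small RNA signal (FPM, fragments scaled to library depth) and FPKM values were computed by the authors, who deposited them per feature beside fragment counts. FPKM values were not used.

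Rows naming no gene (57.8% to 63.2% of reads) were left out, leaving 8315986 to 12675042 counts per total RNA library. Genes passing filterByExpr were tested with edgeR 4.0.16 in R 4.3.3 (TMM scaling, quasi-likelihood F test, two-sided, Benjamini-Hochberg over 14409 genes, threshold 0.05). Standard errors came from the fold change and F. The scripts were tested on simulated data. Among tested genes, 52.0% of simulated 1.25-fold changes passed the threshold, 79.6% of 1.5-fold changes and 87.6% of 2-fold changes, with 8 false calls. A member that did not pass may therefore still differ by a small amount. Of 60483 gene identifiers, 56321 matched a symbol. The alternatives were RLE size factors, other filters, DESeq2 1.42.0, the replicate number as a block, removal of a smooth trend on gene span and each library left out.

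The members, lists and tests were chosen with earlier results of these data known, and the 20 neighbours and the looser element after values were seen. All members are named, and from each other list up to 4 genes per direction with the smallest adjusted p, plus FADS2, ACSS2 and ELOVL7, named after their values were seen. Some genes that this rule would name are not reported here. No pair of replicates agreed within sampling noise.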

Additional observations from a re-analysis of the deposited data

How the results depend on the processing

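Calls changed more often than directions. DESeq2 called 3 members higher (5 reported), and removing the gene span trend called 5 members lower (3 reported), the added ones being IDI1 and INSIG2. With 1 library left out, between 2 and 6 members were called higher and between 3 and 4 lower, and the median log2 fold change lay between 0.0381 (without mut library 1) and 0.1093. Counts of 2 came without WT library 1 or WT library 3 and counts of 3 without mut library 1 or mut library 3. The replicate block, as a paired fit, gave 5 higher and 3 lower. Same-numbered libraries did not deviate together (r of -0.09, -0.07 and 0.03). With 3 libraries per group this cannot show whether the numbers pair them, and the labels do not say. Reversals were confined to 3 genes near 0 that were never called in the settings run. FDFT1 was 0.0021 with RLE size factors, 0.0119 with the 1 CPM filter, 0.0194 without the span trend and 0.0001 with DESeq2. With libraries left out FDFT1 ranged from -0.0441 to 0.0457, NSDHL from -0.1234 to 0.0832 and HSD17B7 from -0.0729 to 0.0583. Over all genes, DESeq2 called 1200 higher and 1250 lower (1867 and 2049 by edgeR), and 1254 were lower without WT library 3. The cause of these changes was not tested. PMVK, CYP51A1, INSIG2 and the miR-33 precursors are limited by low counts.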
